A study of Homo sapiens with 9 samples.

Results

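Immediate early and short-lived transcripts were followed in H69, an established human line from small cell lung cancer. The list holds 37 genes, and each gene was read from probe sets annotated to exactly 1 gene symbol. Where a gene had several such probe sets, it was read from its brightest (by the mean of the 9 arrays), and the others are reported beside it. Of the 37 genes, 35 could be read in this way among 19775 genes in all, and MAFK and EGR2 are not analysed here. The 35 genes hold 76 single-symbol probe sets, and 20 of the genes have more than 1.

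The study concerns the p110α isoform of phosphoinositide 3-kinase (PI3K), a lipid kinase that relays growth factor signals. H69 cells had been kept for 24 h in serum-containing complete medium with PIK75 at 100 nM, with TGX221 at a labelled 1 mM, or with the solvent DMSO (control), with 3 arrays in each group. PIK75 is known as an inhibitor of p110α and TGX221 as an inhibitor of p110β, and all groups share the line, the serum and the time. The unit of the labelled TGX221 dose could not be checked, and the treatment field of the control arrays reads none where the protocol gives DMSO. H69 is a single line, and the labels do not say that the arrays of a group came from separate cultures, so the p-values here rest on array-to-array spread that may be technical only.

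Immediate early genes are switched on within minutes of a growth factor or stress signal, without new protein synthesis, through factors such as SRF, ELK1 and CREB that ERK, p38 and other kinases act on. Their RNAs are short-lived, in many cases because AU-rich elements near the 3′ end recruit decay adaptors of the ZFP36 family, and TOB and BTG proteins bring the CCR4-NOT deadenylase to RNAs. With such transcripts a single 24 h time point shows a late state and not the first response.

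Each value is a deposited log2 expression value, and the fold changes below are differences of group means on that scale. The median over genes lay between 8.20 and 8.23 on every array, as the values had been normalized between arrays. Their spread over genes still differed. The interquartile range over genes was 2.48 to 2.57 on the PIK75 arrays, 2.71 to 2.77 on the TGX221 arrays and 2.78 to 2.83 on the control arrays. Control RNAs added after labelling, the hybridization spikes, averaged 11.52 to 11.56 with PIK75, 11.18 to 11.28 with TGX221 and 11.16 to 11.24 in control. The actin 3′ minus 5′ difference, a sign of RNA quality, was 0.467 to 1.13 with PIK75, 0.256 to 0.415 with TGX221 and 0.239 to 0.443 in control, and PIK75 replicate 5 held the highest value. The same difference for GAPDH was -0.002 to 0.078 with PIK75, 0.003 to 0.018 with TGX221 and -0.052 to 0.013 in control. All 9 measured neuroendocrine markers stood above a background level of 8.57, which is the 95th percentile of the control means of 82 olfactory receptor genes, with control means of 9.18 to 13.22. Those 9 averaged 11.53 to 11.58 on the PIK75 arrays, 11.95 to 11.99 on the TGX221 arrays and 11.92 to 11.94 on the control arrays, with 1 higher and 6 lower with PIK75. Of 13 markers of blood, stromal, endothelial and other epithelial cells, 2 (COL1A1 and SFTPC) were above that level, and the 13 averaged 7.57 to 7.68 on the PIK75 arrays, 7.41 to 7.44 on the TGX221 arrays and 7.38 to 7.48 on the control arrays, with 8 of 13 higher and 0 lower with PIK75. Over all genes above that level in control, 25.1% were higher and 47.2% lower with PIK75. Over all genes not above it, 42.8% were higher and 8.79% lower. The part of the spikes, of RNA quality and of these markers in the results below was not tested.

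With PIK75 the immediate early genes did not move as a block. Against control, 10 of the 35 rose and 11 fell at an adjusted p below 0.05 (limma, Benjamini-Hochberg over all genes), which is 28.6% and 31.4% of them (two-sided test, 3 arrays a group). Over all genes, percent called was 35.2% higher and 25.2% lower, or 60.4% in either direction against 60.0% (21 of 35) for the list, so the share called was near that of all genes. The 2 largest changes were falls of the AP-1 subunit JUND and of the antiproliferative factor TOB1, the only 2 of the 35 that changed by at least 1.5-fold (5.71%; over all genes 11.9% changed by as much, 10.4% lower and 1.48% higher). The classical first responders FOS and EGR1 did not pass the test on the deposited scale. PIK75 and control arrays did not overlap for 22 of the 35 genes (62.9%), against 64.7% of all genes. The median log2 fold change was 0.045 over the 35 genes and 0.088 over all genes. In bulk arrays fewer cells of a kind and less RNA per cell cannot be told apart.

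**Figure D1:**
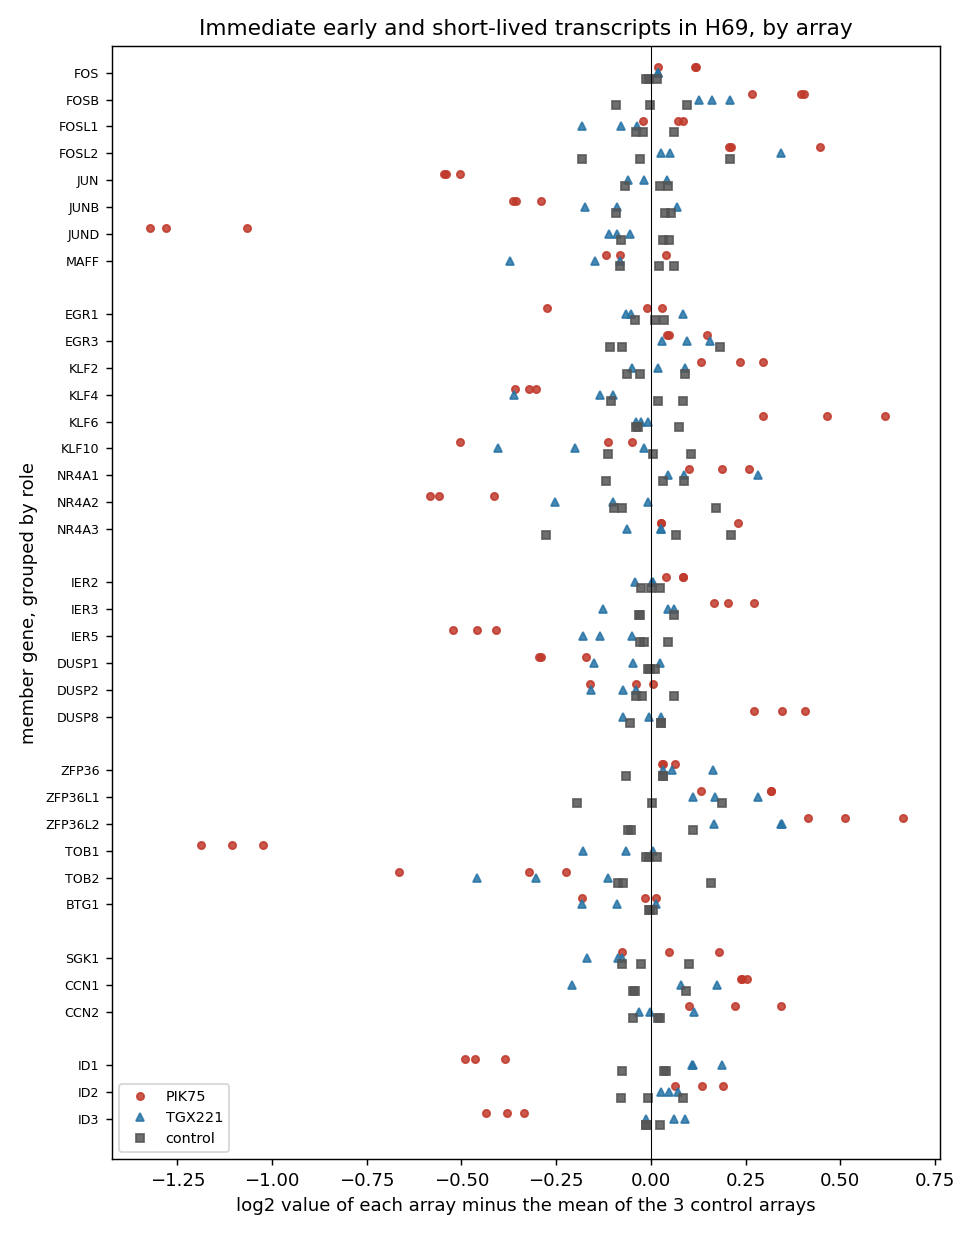
Log2 value of each array minus the mean of the 3 control arrays (x axis, log2 units) for each of the 35 measured genes (y axis, grouped by role), with red circles for PIK75, blue triangles for TGX221 and grey squares for control. The 3 PIK75 points of JUND and TOB1 lie more than 1 log2 unit below the control mean, while most other points lie within 0.5 of it.

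The scale changed how many genes were called in each direction, while all 11 falls kept their calls under every scaling tried. Poly-A spikes are control RNAs added before labelling. When the arrays were centred on these, 4 of the 35 genes were higher and 12 lower with PIK75 (all genes, 2469 and 5109), and after cyclic loess 7 were higher and 13 lower (all genes, 4312 and 5024). When they were centred on the hybridization spikes, 0 were higher and 24 lower (all genes, 386 and 13108). That last centring takes 0.352 from every fold change and puts the median of all genes at -0.264, so differences between genes are untouched by it. Of the 11 falls, 9 (JUN, JUNB, JUND, KLF4, NR4A2, IER5, TOB1, ID1 and ID3) kept direction and call under every alternative in which they were tested. None of the 10 rises did, and the rises below are those of the deposited scale. KLF6 lost its call only with the hybridization spikes, where it stood at 0.11 (adjusted p = 0.258). ZFP36L2 stood at 0.18 there (adjusted p = 0.0521) and FOSB at 0.0036 (adjusted p = 0.97), and the other 7 rises turned to values between -0.0097 and -0.14, none of which passed.

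**Figure D2:**
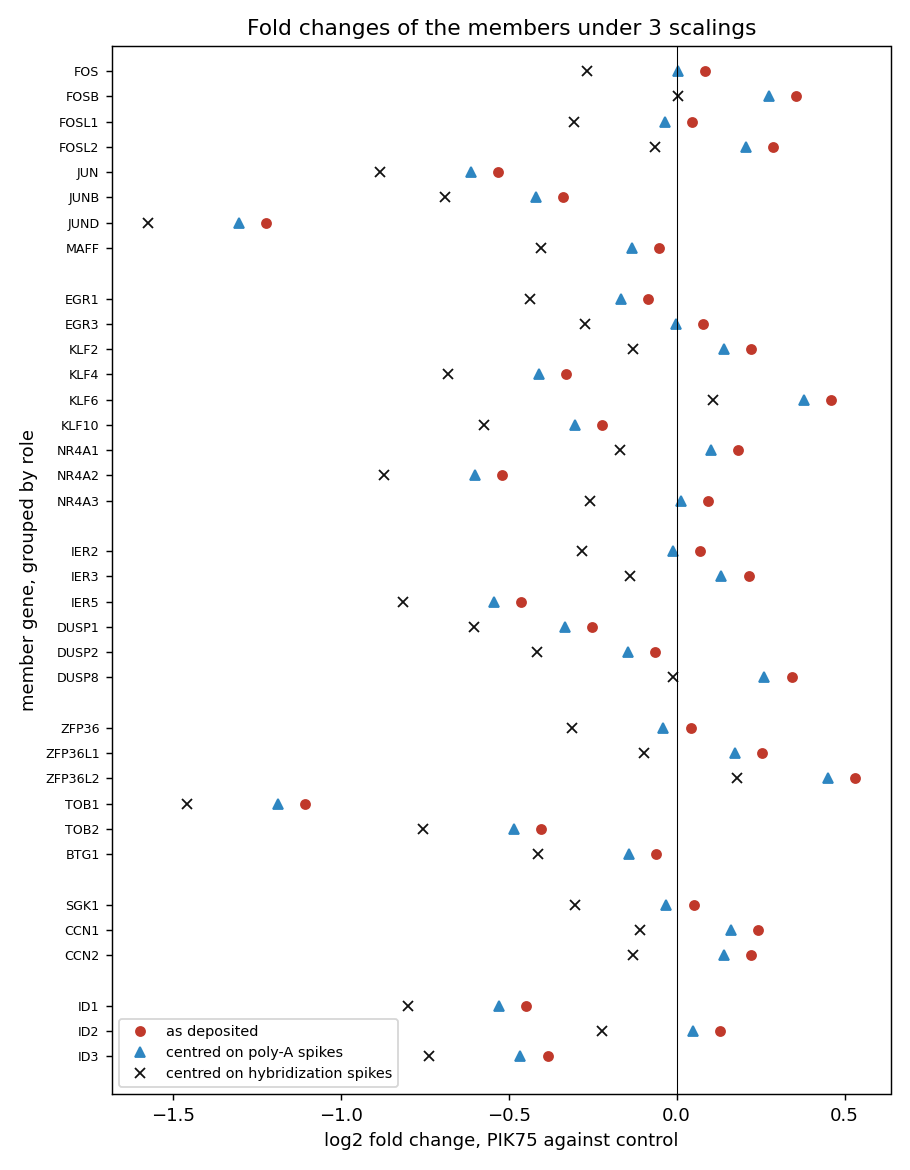
Log2 fold change of each of the 35 genes for PIK75 against control (x axis) as deposited (red circles), after centring on the poly-A spikes (blue triangles) and after centring on the hybridization spikes (black crosses). Every gene moves left by the same amount, JUND and TOB1 stay beyond -1 under all 3 scalings, and only FOSB, KLF6 and ZFP36L2 are above 0 with the hybridization spikes.

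AP-1 is a dimer, for example of a JUN and a FOS family protein, that binds DNA at promoters and enhancers of growth and stress genes. Of its 7 measured subunits and the small MAF factor MAFF, 2 rose (FOSB and FOSL2) and 3 fell (JUN, JUNB and JUND). All JUN family members fell, under every scaling and probe set rule tried. For JUND each of these rules includes the same probe set, 203752_s_at, and its other probe sets, given below, did not fall. JUND, the subunit most often described as slowing proliferation, read 10.39, 10.34 and 10.60 with PIK75, against 11.59, 11.70 and 11.71 in control. The PIK75 arrays lay about 1 unit or more below every control array. Its log2 fold change was -1.22 (2.33-fold lower, SE 0.0685, adjusted p = 2.34e-08). JUN, the partner that gives AP-1 much of its transactivating strength, read 10.41, 10.36 and 10.37 with PIK75, against 10.93, 10.96 and 10.84 in control. The groups did not overlap and JUN fell 1.45-fold (log2 fold change -0.53, SE 0.0528, adjusted p = 3.37e-06). JUNB read 8.30, 8.23 and 8.22 with PIK75, against 8.64, 8.50 and 8.62 in control, where its mean of 8.59 was just above the background level, and it fell 1.26-fold (adjusted p = 0.00108).

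The 250 bases before the annotated starts of JUND and JUN are shown because both subunits fell. JUND was picked by its fold change, and JUN, like ID1 below, after its values were seen. The sequences are RefSeq's (GRCh38.p14), 5′ to 3′ on the strand of the gene, and capitals mark a match to one of the motifs searched. JUND lies on the minus strand at chr19:18281623-18281872 and JUN on the minus strand at chr1:58784048-58784297.
JUND: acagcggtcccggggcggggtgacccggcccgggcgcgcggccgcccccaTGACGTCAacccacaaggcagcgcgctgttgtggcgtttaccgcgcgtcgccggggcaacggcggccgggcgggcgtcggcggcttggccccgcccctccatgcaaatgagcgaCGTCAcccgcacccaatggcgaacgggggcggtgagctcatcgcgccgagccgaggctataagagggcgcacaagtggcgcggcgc
JUN: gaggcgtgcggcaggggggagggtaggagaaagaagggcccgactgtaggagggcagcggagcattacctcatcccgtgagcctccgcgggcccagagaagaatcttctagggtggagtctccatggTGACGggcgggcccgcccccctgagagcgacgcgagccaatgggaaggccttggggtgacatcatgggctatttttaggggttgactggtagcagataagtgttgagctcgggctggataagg
The JUND stretch holds the full cAMP response element TGACGTCA at positions -200 to -193, where -1 is the base before the start, and a further TGACG, the element's core, on the opposite strand at -86 to -82. The JUN stretch holds 1 TGACG at -123 to -119. Promoters of 28 of the 35 genes were in the table. The full element was in 4 of these 28 (DUSP1, DUSP8, JUND and MAFF; 14.3%) and in 1.77% of all 27305 promoters of the same length, and its first 5 bases TGACG, which the full element contains, was in 16 of the 28 (57.1%) and in 21.7% of all. The TATA box TATAAA was in 8 of the 28 (28.6%) and in 11.1% of all, the AP-1 site TGANTCA in 0 of the 28 and in 6.6% of all, and the serum response element (CArG box) in 1 of the 28, EGR1 (3.57%), and in 1.14% of all. Both strands were searched, and a match is a description of letters. Letters that differ from the motifs were not counted, such as tgacatca in the JUN stretch, so a lack of matches does not show that a promoter has no such site. Of the 4 genes with the full element, JUND and DUSP1 fell, DUSP8 rose and MAFF did not pass.

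FOSB rose, FOS and FOSL1 did not pass, and FOSL2 depended on the probe set. FOSB, which like FOS pairs with JUN proteins, read 8.16, 8.30 and 8.29 with PIK75, against 7.99, 7.89 and 7.80 in control (log2 fold change 0.36, SE 0.0620, adjusted p = 0.000399). The groups did not overlap, although both means were below the background level and the change was 0.0036 with the hybridization spikes. FOS read 7.64, 7.54 and 7.64 with PIK75, against 7.51, 7.52 and 7.54 in control, a difference of 0.085 (adjusted p = 0.148). With the hybridization spikes FOS was lower with a call (-0.27, adjusted p = 0.0028). FOSL1, also called FRA-1, differed by 0.045 (adjusted p = 0.505), and by -0.31 with the hybridization spikes (adjusted p = 0.0011). MAFF, a partner without a transactivation domain, differed by -0.053 (adjusted p = 0.563), and by -0.40 with the hybridization spikes (adjusted p = 4.43e-05). FOS, FOSL1 and MAFF were not above the background level in any group. Identical deposited values on 2 or more arrays, such as 7.54 for FOS on all 3 TGX221 arrays and on PIK75 replicate 3, occur for 16 of the 35 genes (45.7%) and for 40.8% of all genes.

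FOSL2, ZFP36L2 and JUND each had probe sets that passed in opposite directions, 3 of the 20 genes with more than 1 probe set. Adjusted p-values of single probe sets come from a fit over all 41091 single-symbol probe sets. For JUND the probe set used, 203752_s_at, fell by 1.22, while 229117_s_at read 8.64, 8.87 and 8.81 with PIK75, against 8.33, 8.28 and 8.33 in control, and rose by 0.46 (adjusted p = 0.000294). The other JUND probe sets, 203751_x_at and 214326_x_at, differed by 0.019 and 0.077 and did not pass. The mean over the 4 probe sets of JUND still fell, by 0.17 (adjusted p = 0.00553).

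For FOSL2, a FOS relative without a strong transactivation domain, the outcome turned with the probe set. The probe set used, 205409_at, read 8.04, 7.80 and 7.81 with PIK75, against 7.57, 7.42 and 7.81 in control, so the groups overlapped. It rose by 0.29 (SE 0.108, adjusted p = 0.0369) in the fit over genes, and 218881_s_at rose by 0.24. Probe set 225262_at read 7.48, 7.02 and 6.96 with PIK75, against 8.22, 8.27 and 7.76 in control, and fell by 0.93 (adjusted p = 0.000516). Probe set 228188_at read 7.02, 7.25 and 7.08 with PIK75, against 7.83, 8.16 and 7.80 in control, and fell by 0.81 (adjusted p = 3.54e-05). All PIK75 values of these last 2 probe sets lay below all control values. If the brightest probe set is taken over the control arrays alone, FOSL2 is read from 225262_at and falls by 0.93 (adjusted p = 0.000331), and the mean of its 5 probe sets also fell, by 0.23 (adjusted p = 0.00436). The rise of 205409_at also lost its call after centring on the poly-A spikes (0.21, adjusted p = 0.0883) or cyclic loess normalization (0.14, adjusted p = 0.326), and without control replicate 1 (0.27, adjusted p = 0.0863) or control replicate 3 (0.20, adjusted p = 0.154). Leaving out PIK75 replicate 1 gave 0.21 (adjusted p = 0.139).

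**Figure D3:**
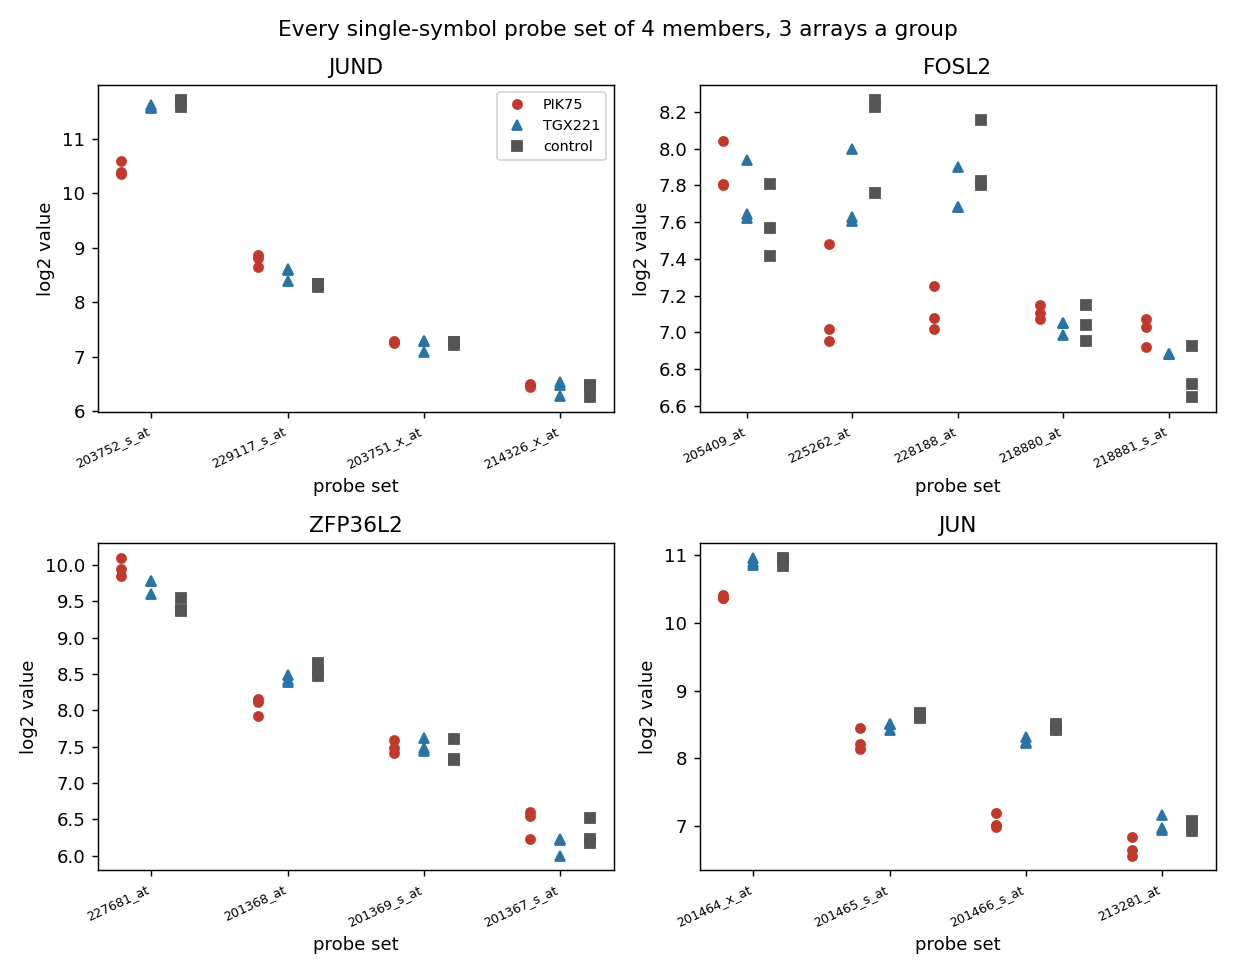
Log2 value (y axis) of every single-symbol probe set (x axis) of JUND, FOSL2, ZFP36L2 and JUN, with red circles for PIK75, blue triangles for TGX221 and grey squares for control, 3 arrays each. The brightest JUND probe set has its PIK75 arrays lowest and the next one has them highest, ZFP36L2 also holds probe sets of both kinds, FOSL2 holds 2 with the PIK75 arrays lowest and 3 with overlapping groups, and all 4 JUN probe sets have their lowest values with PIK75.

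JUN, TOB1, NR4A2, CCN1 and KLF2 gave the same direction in all of their probe sets. The 4 probe sets of JUN fell by 0.33 to 1.39, the largest fall being that of 201466_s_at, which read 7.19, 6.99 and 7.02 with PIK75, against 8.43, 8.50 and 8.43 in control. The 3 probe sets of NR4A2 fell by 0.24 to 0.66. KLF6 rose in 4 of its 5 probe sets, by 0.44 to 0.55. DUSP1, KLF4 and TOB2 fell in the probe set used and in none of their others, and DUSP8 and ZFP36L1 rose in the probe set used alone.

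Among the zinc finger and nuclear receptor factors (EGR, KLF and NR4A), 2 of 9 rose (KLF2 and KLF6) and 2 fell (KLF4 and NR4A2). KLF6, a factor that holds back proliferation in several tissues, read 10.75, 10.60 and 10.43 with PIK75, against 10.10, 10.10 and 10.21 in control. All 3 PIK75 arrays were above all control arrays, and KLF6 rose 1.38-fold (log2 fold change 0.46, SE 0.0732, adjusted p = 0.000194). KLF2, a factor best known from endothelium and resting lymphocytes, rose by 0.22 (adjusted p = 0.00998) with a control mean of 8.01, under the background level, and stood at -0.13 with the hybridization spikes. KLF4, one of the reprogramming factors, read 9.80, 9.84 and 9.86 with PIK75, against 10.06, 10.25 and 10.18 in control, and fell by 0.33 (adjusted p = 0.00224).

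NR4A2, an orphan nuclear receptor needed by dopaminergic neurons, read 7.09, 7.06 and 7.23 with PIK75, against 7.55, 7.57 and 7.82 in control. It was the only gene of the list that fell with a control mean not above the background level (log2 fold change -0.52, SE 0.0846, adjusted p = 0.000237). Its relatives did not pass, with 0.18 for NR4A1 (adjusted p = 0.0523) and 0.094 for NR4A3 (adjusted p = 0.437). NR4A1 passed under 7 of its alternatives, among them leaving out control replicate 3 (0.23, adjusted p = 0.0402) or the PIK75 array numbered 5 (0.23, adjusted p = 0.0396). A second probe set of each receptor rose, NR4A1 210226_at by 0.27 and NR4A3 209959_at by 0.35, and averaging the probe sets of NR4A3 gave 0.18 (adjusted p = 0.0225). With the hybridization spikes NR4A3 was lower with a call (-0.26, adjusted p = 0.0274). EGR1, the growth factor-induced zinc finger factor, read 7.72 to 8.02 with PIK75, against 7.95 to 8.03 in control, so the groups overlapped (difference -0.085, adjusted p = 0.351), but it was lower with a call after cyclic loess (-0.21, adjusted p = 0.0312) and after centring on the hybridization spikes (-0.44, adjusted p = 3.51e-05). EGR3 differed by 0.079 (adjusted p = 0.367) and KLF10, which is induced by TGF-β, by -0.22 (adjusted p = 0.12). KLF10 was lower with a call with the poly-A spikes (-0.30, adjusted p = 0.00784) and the hybridization spikes (-0.57, adjusted p = 1.78e-05). EGR3 passed as higher without control replicate 3 (0.17, adjusted p = 0.0403) and as lower with the hybridization spikes (-0.27, adjusted p = 0.00409).

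Among the IER genes and the MAP kinase phosphatases 2 of 6 rose (IER3 and DUSP8) and 2 fell (IER5 and DUSP1). IER5, known to activate the heat shock factor HSF1, read 10.29, 10.24 and 10.17 with PIK75, against 10.68, 10.66 and 10.74 in control, with no overlap, and fell 1.38-fold (log2 fold change -0.46, SE 0.0551, adjusted p = 1.67e-05). DUSP1, a nuclear phosphatase that switches off p38, JNK and ERK, read 8.90, 8.78 and 8.77 with PIK75, against 9.08, 9.06 and 9.06 in control, and fell by 0.25 (adjusted p = 0.00296). Its call was lost in the mean of its 3 probe sets (-0.047, adjusted p = 0.415). DUSP8, a phosphatase with a preference for JNK and p38, read 9.93, 10.00 and 10.06 with PIK75, against 9.68, 9.68 and 9.60 in control, and rose by 0.34 (adjusted p = 0.000215). DUSP8 stood at -0.0097 with the hybridization spikes and at 0.13 (adjusted p = 0.0561) in the mean of its 2 probe sets. IER3, which modulates survival, rose by 0.21 (adjusted p = 0.0105) with a control mean of 7.30, under the background level, and stood at -0.14 with the hybridization spikes. IER2 (0.071, adjusted p = 0.209) and DUSP2, a phosphatase of activated lymphocytes (-0.064, adjusted p = 0.365), did not pass. After cyclic loess IER2 was higher (0.20, adjusted p = 0.00413) and DUSP2 lower (-0.20, adjusted p = 0.00835). With the hybridization spikes both IER2 (-0.28, adjusted p = 0.00165) and DUSP2 (-0.42, adjusted p = 3.91e-05) were lower.

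Among the adaptors of mRNA decay and their BTG and TOB relatives, 2 of 6 rose (ZFP36L1 and ZFP36L2) and 2 fell (TOB1 and TOB2). TOB1, which binds the deadenylase and holds back cell growth, read 10.46, 10.38 and 10.29 with PIK75, against 11.50, 11.48 and 11.47 in control. Every PIK75 array lay at least 1 unit below every control array. TOB1 fell 2.15-fold (log2 fold change -1.11, SE 0.0610, adjusted p = 2.09e-08), the smallest p of the list. Its second probe set, 228834_at, read 9.04, 8.63 and 8.61 with PIK75, against 9.71, 9.71 and 9.70 in control. It fell by 0.94 (adjusted p = 5.72e-06). The 250 bases before the TOB1 start, at chr17:50867979-50868228 on the minus strand, are shown beside those of JUND because TOB1 fell by nearly as much; they hold none of the motifs searched, which says only that these letters are not in this window.
TOB1: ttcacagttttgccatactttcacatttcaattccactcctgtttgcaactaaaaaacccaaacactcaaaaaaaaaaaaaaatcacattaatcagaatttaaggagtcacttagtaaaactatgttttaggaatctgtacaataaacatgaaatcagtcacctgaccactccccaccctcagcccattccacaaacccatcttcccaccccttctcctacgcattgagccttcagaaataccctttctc
TOB2 read 9.90, 9.81 and 9.47 with PIK75, against 10.04, 10.06 and 10.29 in control, and fell by 0.40 (SE 0.115, adjusted p = 0.00996), but its mean over 3 probe sets did not pass (-0.12, adjusted p = 0.113). BTG1, a member of the same family, read 11.51, 11.53 and 11.34 with PIK75, against 11.52, 11.53 and 11.52 in control, and did not pass (-0.061, adjusted p = 0.427), except with the hybridization spikes (-0.41, adjusted p = 3.17e-05).

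ZFP36L2, an AU-rich element binding protein that promotes deadenylation, read 9.84, 9.94 and 10.09 with PIK75, against 9.54, 9.38 and 9.37 in control. The groups did not overlap, and the log2 fold change of 0.53 (SE 0.0771, adjusted p = 9.08e-05) was the highest of the list. A second probe set of the gene, 201368_at, read 8.12, 8.15 and 7.92 with PIK75, against 8.47, 8.64 and 8.53 in control, and fell by 0.48 (adjusted p = 0.00015). The mean of its 4 probe sets was 0.072 (adjusted p = 0.254). ZFP36L1 rose by 0.26 (adjusted p = 0.0275) with overlapping arrays and a control mean under the background level, stood at -0.097 with the hybridization spikes, and lost its call without control replicate 3 (0.16, adjusted p = 0.126) or control replicate 5 (0.26, adjusted p = 0.0609). It was also lost when PIK75 replicate 1 (0.22, adjusted p = 0.0807) or PIK75 replicate 5 (0.22, adjusted p = 0.084) was left out. ZFP36, also called tristetraprolin, differed by 0.042 (adjusted p = 0.511), and by -0.31 with the hybridization spikes (adjusted p = 0.000603).

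SGK1, a kinase downstream of PI3K, read 9.06, 9.18 and 9.32 with PIK75, against 9.06, 9.24 and 9.11 in control. It did not pass (0.051, adjusted p = 0.543), except as lower with the hybridization spikes (-0.30, adjusted p = 0.00166). The matricellular proteins CCN1 and CCN2, known targets of YAP and TEAD, both rose, by 0.24 (adjusted p = 0.0254) and 0.22 (adjusted p = 0.013). Both had control means well under the background level, 7.22 and 5.24, and stood at -0.11 and -0.13 with the hybridization spikes. CCN1 lost its call without any 1 of 5 arrays (adjusted p between 0.0502 without PIK75 replicate 1 and 0.0798 without control replicate 5, and also without control replicate 3, PIK75 replicate 3 or PIK75 replicate 5), and CCN2 without PIK75 replicate 3 (0.16, adjusted p = 0.0592).

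ID proteins lack a DNA-binding region and hold basic helix-loop-helix factors, among them the neuroendocrine ones, away from DNA; ID1 and ID3 are known targets of BMP signalling. ID1 read 12.18, 12.10 and 12.07 with PIK75, against 12.60, 12.60 and 12.49 in control. The groups did not overlap and ID1 fell 1.36-fold (log2 fold change -0.45, SE 0.0553, adjusted p = 2.32e-05). ID3 read 10.31, 10.36 and 10.26 with PIK75, against 10.72, 10.68 and 10.68 in control, and fell by 0.38 (SE 0.0516, adjusted p = 4.81e-05). ID2 read 12.64, 12.57 and 12.70 with PIK75, against 12.50, 12.43 and 12.59 in control. The ID2 groups overlapped, and it did not pass at 0.13 (adjusted p = 0.066), but it was higher with a call under 5 alternatives, among them cyclic loess (0.23, adjusted p = 0.00458), without control replicate 5 (0.17, adjusted p = 0.0316) and leaving out PIK75 replicate 3 (0.16, adjusted p = 0.0449), and lower with a call with the hybridization spikes (-0.22, adjusted p = 0.0156). The 250 bases before the ID1 start, at chr20:31605039-31605288 on the plus strand, are shown for their TATA box TATAAA at positions -31 to -26, which overlaps a match on the opposite strand at -33 to -28.
ID1: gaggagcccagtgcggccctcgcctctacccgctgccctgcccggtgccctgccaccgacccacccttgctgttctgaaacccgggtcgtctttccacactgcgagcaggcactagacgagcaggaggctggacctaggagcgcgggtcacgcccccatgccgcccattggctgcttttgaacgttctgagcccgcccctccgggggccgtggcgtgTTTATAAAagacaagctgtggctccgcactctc

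**Figure D4:**
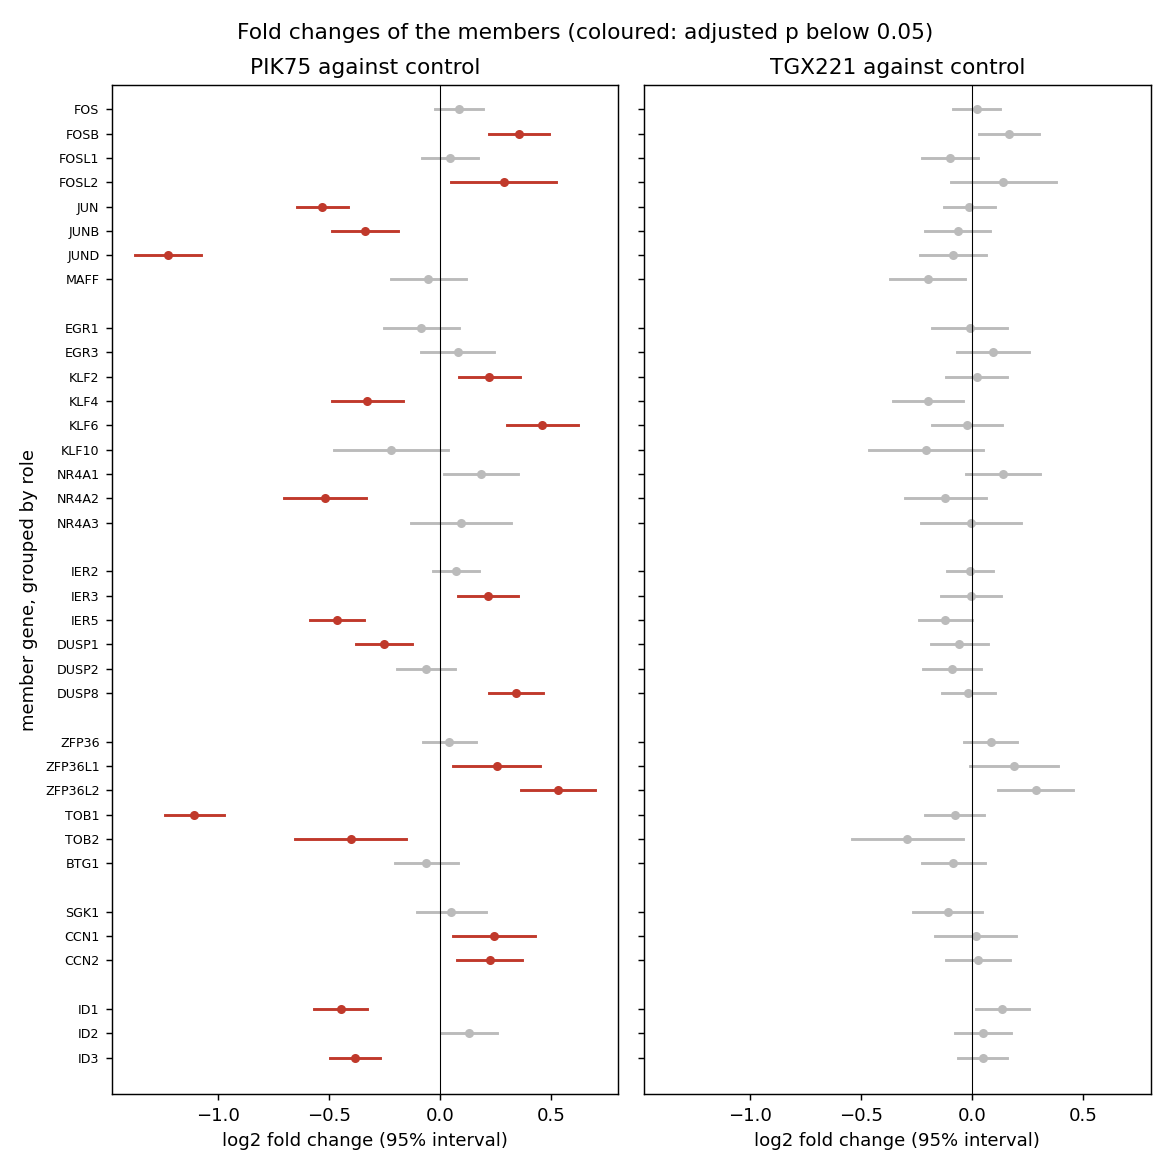
Log2 fold change with its 95% interval (x axes) of each of the 35 genes (y axis, grouped by role), for PIK75 against control on the left and TGX221 against control on the right, with red for an adjusted p below 0.05 and grey otherwise. On the left, on the deposited scale, 10 genes are red above 0 and 11 below it (none above 0 with the hybridization spikes), and on the right none is red.

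The direction of the PIK75 change went with the level of the gene. Of the 19 genes above the background level in control, 3 rose and 10 fell (15.8% and 52.6%), and over all 8449 genes above that level 25.1% rose and 47.2% fell. Of the 16 genes not above it, 7 rose and 1 fell (43.8% and 6.25%), and over all 11326 such genes 42.8% rose and 8.79% fell. The median log2 fold change was -0.25 for the 19 genes, against -0.12 for all genes above the level, and 0.090 for the 16 genes, against 0.14 for all genes not above it. In shares called, the 16 genes therefore ran close to all genes of like level. The 19 genes did so for falls, but with a smaller share of rises and a lower median. The split by level rests on the control means, which also enter the fold changes. JUNB, counted among the falls, stood above the level only in control (8.59, against 8.25 with PIK75 and 8.52 with TGX221). The background level is a rough guide, since probe sets differ in how brightly they bind.

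**Figure D5:**
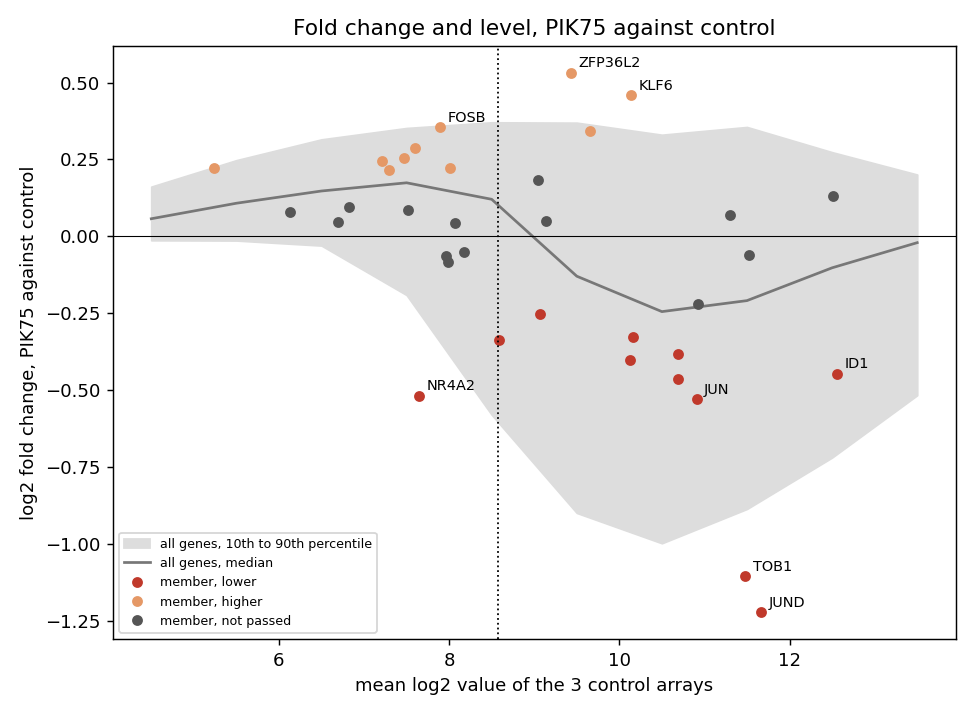
Log2 fold change for PIK75 against control (y axis) against the mean log2 value of the 3 control arrays (x axis) for the 35 genes, red where lower, orange where higher and dark grey where not passed. The grey line and band are the median and the 10th to 90th percentiles of all genes in 1-unit bins, and the dotted line is the background level; JUND, TOB1 and NR4A2 lie below the band, and ZFP36L2 and KLF6 above it, with FOSB at its upper edge.

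With TGX221 none of the 35 genes passed against control, where 1.21% of all genes (239) were called. At an unadjusted p below 0.05 there were 7 (20.0%, against 18.3% of all genes), namely FOSB, MAFF, KLF4, IER5, ZFP36L2, TOB2 and ID1. The arrays of the groups did not overlap for 6 genes (17.1%, against 23.9% of all). ZFP36L2 had the smallest adjusted p (0.0886), with 9.60, 9.78 and 9.77 with TGX221, against 9.54, 9.38 and 9.37 in control, a difference of 0.29. TOB2 had the lowest difference, -0.29 (adjusted p = 0.209), with 9.83, 10.02 and 9.67 with TGX221, against 10.04, 10.06 and 10.29 in control. ID1 read 12.75, 12.67 and 12.67 with TGX221, against 12.60, 12.60 and 12.49 in control, a difference of 0.14 in the direction opposite to its fall with PIK75 (adjusted p = 0.219).

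The genes that fell most with PIK75 showed small differences with TGX221 in the probe sets used. JUND read 11.56, 11.61 and 11.58 with TGX221, against 11.59, 11.70 and 11.71 in control (-0.085, adjusted p = 0.554). TOB1 read 11.30, 11.49 and 11.42 with TGX221, against 11.50, 11.48 and 11.47 in control (-0.079, adjusted p = 0.533), and JUN differed by -0.012 (adjusted p = 0.938). Among their other probe sets, JUN 201466_s_at (-0.19, adjusted p = 0.155), JUN 201465_s_at (-0.16, adjusted p = 0.297) and TOB1 228834_at (-0.16, adjusted p = 0.414) had all TGX221 arrays below all control arrays. JUN 213281_at (0.017, adjusted p = 0.944) and JUND 229117_s_at (0.21, adjusted p = 0.187) went the other way, and none of these passed. No gene of the list, and 0.0152% of all genes (3, all lower), was called at 1.5-fold or more. In the probe sets used, the 95% intervals of all 35 genes lay within 1.5-fold, from -0.54 for TOB2 to 0.45 for ZFP36L2. This bound does not cover their other probe sets. MAFF 36711_at differed by -0.50 (SE 0.173, adjusted p = 0.176) and FOSL2 225262_at by -0.34 (SE 0.161, adjusted p = 0.307), and neither passed. These are the brightest probe sets of MAFF and FOSL2 over the control arrays alone. Among the other settings, ZFP36L2 passed as higher with the poly-A spikes (0.35, adjusted p = 0.0231) and KLF4 as lower with the hybridization spikes (-0.26, adjusted p = 0.0494). The median was -0.011 over the 35 genes and -0.0017 over all genes. Both inhibitors were set against the same 3 control arrays, so their fold changes are not independent.

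PIK75 against TGX221, at labelled doses that differ, gave 8 genes higher and 9 lower of 35, or 48.6% called (over all genes 25.1% were higher and 22.3% lower, 47.4% in all). The groups did not overlap for 18 genes (51.4%, against 55.1% of all). JUND (10.39, 10.34 and 10.60 with PIK75, 11.56, 11.61 and 11.58 with TGX221) was 2.20-fold lower with PIK75 (log2 fold change -1.14, 95% interval -1.29 to -0.99). Its probe set 229117_s_at was higher in the same comparison (0.25, adjusted p = 0.0172), and the mean of its 4 probe sets was -0.20. TOB1 (10.46, 10.38 and 10.29 with PIK75, 11.30, 11.49 and 11.42 with TGX221) was 2.04-fold lower (-1.03, -1.16 to -0.89). These were the 2 genes past 1.5-fold, and over all genes 10.2% changed by as much, 8.44% lower and 1.73% higher. ID1 (12.18, 12.10 and 12.07 with PIK75, 12.75, 12.67 and 12.67 with TGX221) lay just inside that fold, with a difference of -0.58 (adjusted p = 2.63e-06).

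The other 6 lower genes were JUN (-0.52), ID3 (-0.43), NR4A2 (-0.40), IER5 (-0.34), JUNB (-0.27) and DUSP1 (-0.19). DUSP1 alone of the 9 lost its call in some settings, with an adjusted p of 0.0559 when PIK75 replicate 3 was left out, 0.051 when PIK75 replicate 5 was, 0.0729 when TGX221 replicate 5 was, and 0.588 for the mean of its probe sets. KLF6 was highest, at 0.48 (95% interval 0.32 to 0.64, adjusted p = 0.000151), with 10.75, 10.60 and 10.43 with PIK75, against 10.13, 10.11 and 10.10 with TGX221. It was the 1 higher gene of 8 that kept its call in every setting. The other 7, of which 6 turned below 0 with the hybridization spikes and DUSP8 did not (0.073), were DUSP8 (0.36), ZFP36L2 (0.25), CCN1 (0.23), IER3 (0.22), KLF2 (0.20), CCN2 (0.20) and FOSB (0.19). ZFP36L2 again had a probe set with the opposite call, 201368_at (-0.36, adjusted p = 0.00154), and averaging its probe sets gave 0.045 (adjusted p = 0.504). KLF4 and TOB2, lower with PIK75 against control, did not pass against TGX221, with -0.13 (95% interval -0.29 to 0.030) and -0.11 (95% interval -0.36 to 0.14) on the deposited scale. KLF4 was lower with a call with the poly-A spikes (-0.28, adjusted p = 0.016), with the hybridization spikes (-0.42, adjusted p = 2.98e-05) and when TGX221 replicate 2 was left out (-0.21, adjusted p = 0.0252). TOB2 was lower with a call with the poly-A spikes (-0.26, adjusted p = 0.0277) and the hybridization spikes (-0.40, adjusted p = 0.00182).

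Further lists of the same pathways were read in the same way, PIK75 against control. Of 30 other immediate early genes, 10 rose and 13 fell (76.7% called in either direction), with a median of -0.041. The 4 with the smallest p all fell: SIK1, a salt-inducible kinase and CREB target, by 0.98, CITED2, a coregulator of p300 and CBP, by 1.32, CEBPD, a C/EBP factor, by 0.64, and PLK2, a polo-like kinase, by 0.89 (largest adjusted p of the 4, 2.29e-06). Of the 26 kinases and factors that lead to these promoters (ERK, SRF and CREB relay), 6 rose and 11 fell, with a median of -0.034. RPS6KA5, the kinase MSK1 that phosphorylates CREB and histone H3, fell 2.84-fold (9.20 with PIK75, 10.71 in control), MAPK8, which encodes JNK1, fell 2.02-fold, MEF2C 1.70-fold and MRTFB, an SRF coactivator, 1.34-fold. MAPK8 was also lower with TGX221, by 0.25 (adjusted p = 0.0465), a call that was lost in other settings. With 2 groups only, with the replicate number as a block and at an adjusted p below 0.01, 0 of all genes were called for TGX221 against control.

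Of 35 genes of deadenylation and AU-rich element decay, 7 rose and 15 fell, with a median of -0.15. HNRNPD, which encodes the AU-rich element binding protein AUF1, fell 2.51-fold, the exosome subunits EXOSC9 and EXOSC3 fell 1.80-fold and 1.45-fold, and the 5′ exonuclease XRN1 fell by 0.58 on the log2 scale. Of 15 genes of the YAP and TEAD relay, 2 rose and 6 fell, with a median of -0.043. SAV1, a Hippo scaffold, fell by 0.81 and MOB1B by 0.22, while TEAD2 rose by 0.29 and WWTR1, which encodes TAZ, by 0.20. The control means of WWTR1 (7.27) and MOB1B (7.16) were under the background level. Of 18 BMP ligands, receptors, SMADs and antagonists, 3 rose and 7 fell, with a median of -0.090. The antagonist GREM1 fell by 1.19, the receptor ACVR1 by 1.02 and SMAD9 by 0.50, while the inhibitory SMAD6 rose by 0.41. SMAD6 was also higher with TGX221, by 0.29 (adjusted p = 0.0414), a call lost in the same settings as that of MAPK8. The shares called in these 5 lists, 53.3% to 76.7%, stand beside 60.4% of all genes. By direction, 35.2% of all genes were higher and 25.2% lower. Above the background level 25.1% were higher and 47.2% lower, and not above it 42.8% and 8.79%. These lists were not recomputed under the other scalings.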

How the data were processed

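Total RNA of H69 cells, 2 ug a sample per the labels' protocols, had been measured on 9 single-colour Affymetrix arrays. The authors deposited log2 expression values per probe set, made per the submitters' processing notes with RMA. This method normalizes the arrays to one another, and its version is not given in the sources used here. Of 54675 probe sets, 41091 carried 1 gene symbol, 1801 carried several, and control probe sets were left out. The brightest single-symbol probe set stood for each of 19775 genes, and probe sets with several symbols were not used. Group means of all 9 arrays were fitted with limma 3.58.1 in R 4.3.3 (lmFit and eBayes, 6 residual degrees of freedom), and p-values are two-sided with Benjamini-Hochberg adjustment over all genes. Genes with an adjusted p under 0.05 count as called, and 3 arrays a group limit the precision. Scripts were tested on simulated data.

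The members and lists were chosen with earlier results of these data known. Every array is given for genes called at 1.5-fold or with probe sets passing in opposite directions, and for others that the text describes, chosen after their values were seen. From each further list the 4 genes with the smallest p for PIK75 against control are named. Alternatives were centring on 24 poly-A or 18 hybridization spike probe sets, cyclic loess, leaving out dim genes, the mean of probe sets, 2 groups only, a trended robust spread, the replicate number as a block, a threshold of 0.01, each array left out in turn, and, added after seeing the data, the brightest probe set of the control arrays. Promoter sequences are RefSeq's for GRCh38.p14, matched by symbol. Python 3.11.15 with numpy 2.4.6, pandas 2.3.3 and matplotlib 3.10.9 was used for the rest.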

Additional observations from a re-analysis of the deposited data

How the results depend on the processing

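For PIK75 against control, 4 genes of the list were called higher with the poly-A spikes and 0 with the hybridization spikes (all genes, 2469 and 386). With dim genes left out, 5 of the 19 genes of the list still tested were higher (all genes, 3165). At an adjusted p below 0.01, 5 of the 35 were higher (all genes, 4401). With the hybridization spikes 24 were called lower (all genes, 13108). Over all genes 7578 were called with the poly-A spikes and 7307 with dim genes left out, where fewer genes were tested. The median of the list was -0.036 with the poly-A spikes, -0.31 with the hybridization spikes, -0.065 with cyclic loess and -0.25 with dim genes left out. Over all genes it was 0.0069, -0.264, 0.0079 and -0.045 in the same order. The hybridization spikes, whose centring takes the same amount from every gene, turned FOS to -0.27, FOSL1 to -0.31, FOSL2 to -0.064, EGR3 to -0.27, KLF2 to -0.13, NR4A3 to -0.26, IER2 to -0.28, IER3 to -0.14, DUSP8 to -0.0097, ZFP36 to -0.31, ZFP36L1 to -0.097, SGK1 to -0.30, CCN1 to -0.11, CCN2 to -0.13 and ID2 to -0.22. Of these, FOS, FOSL1, EGR3, NR4A3, IER2, ZFP36, SGK1 and ID2 were called lower there (adjusted p from 0.000603 for ZFP36 to 0.0274 for NR4A3), and the rest did not pass. FOSL2 turned to -0.23 for the mean of probe sets and to -0.93 for the brightest probe set of the control arrays. Leaving out 1 array gave 7 to 9 genes higher, 11 lower and a median of 0.013 to 0.063 (all genes, 5598 to 6590 higher and 4644 to 4980 lower). For TGX221 against control, 1 gene was higher with the poly-A spikes and 1 lower with the hybridization spikes. Over all genes 508 were called with the poly-A spikes, 633 with the hybridization spikes, 30 for the mean of probe sets, and 0 with 2 groups only, with the replicate block and at an adjusted p below 0.01, and 0 to 701 when 1 array was left out. Its median was 0.058 with the poly-A spikes, -0.076 with the hybridization spikes, -0.024 with cyclic loess, -0.057 with dim genes left out, -0.0017 with the replicate block and -0.023 to -0.0001 without 1 array. The median of all genes was 0.0675, -0.0665, -0.012 and -0.0213 in the same order, and -0.0037 with the replicate block. For PIK75 against TGX221, 1 gene was higher with the poly-A spikes, 1 with the hybridization spikes and 5 with cyclic loess (all genes, 980, 626 and 3617). With dim genes left out, 3 of the 19 genes of the list still tested were higher (all genes, 2605). At an adjusted p below 0.01, 2 of the 35 were higher (all genes, 2804). With the hybridization spikes 22 were lower (all genes, 11899). Its median was -0.10 with the poly-A spikes, -0.24 with the hybridization spikes, -0.015 with cyclic loess, -0.11 with dim genes left out and 0.026 both for the mean of probe sets and for the brightest probe set of the control arrays. For all genes the medians were -0.0882, -0.2251, 0.0027, -0.0276, 0.0595 and 0.0594 in the same order. The hybridization spikes turned FOS to -0.22, FOSB to -0.097, KLF2 to -0.086, NR4A1 to -0.24, IER2 to -0.21, IER3 to -0.065, DUSP2 to -0.26, ZFP36L1 to -0.22, ZFP36L2 to -0.041, BTG1 to -0.26, CCN1 to -0.059, CCN2 to -0.091 and ID2 to -0.21, and FOSL2 turned to -0.18 for the mean of probe sets and -0.59 for the brightest probe set of the control arrays. Of those turned by the hybridization spikes, FOS, NR4A1, IER2, DUSP2, ZFP36L1, BTG1 and ID2 were called lower there (adjusted p from 0.00428 for BTG1 to 0.0444 for ZFP36L1), and the rest did not pass. Leaving out 1 array gave 4 to 8 genes higher, 8 to 10 lower and a median of 0.0070 to 0.065 (all genes, 3705 to 4819 higher and 4047 to 4386 lower). Apart from what the settings' construction gives, the cause of these changes was not tested. Equal replicate numbers were no sign of pairing, since deviations of same-numbered arrays from their group means correlated between -0.134 and 0.235. With the number as a block, the list gave 10 higher and 12 lower for PIK75 against control, 0 called for TGX221 against control, and 6 higher and 9 lower for PIK75 against TGX221, and all genes gave 11424, 0 and 7771 calls. Under the block KLF10 gained a call for PIK75 against control (-0.22, adjusted p = 0.019), and for PIK75 against TGX221 SGK1 gained one (0.22, adjusted p = 0.0485) while FOSB (adjusted p = 0.11), KLF2 (adjusted p = 0.0957) and ZFP36L2 (adjusted p = 0.137) lost theirs. Signal near the background level limits the 16 dimmer genes.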
